A study of Mus musculus with 18 samples.

Results

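The transcription factors that specify and maintain midbrain dopamine neurons were followed in neurons captured from 2 brain regions of mice given the dopamine neuron toxin MPTP. The members were Nr4a2, Pitx3, En1, En2, Foxa1, Foxa2, Lmx1a, Lmx1b and Sox6, chosen by name with earlier results of these data known. The rule that found their probe sets (groups of short probes that read 1 transcript region) uses no measured value. It took, through the array's gene annotation, every probe set whose only gene symbol was a member. This gave 9 genes of 18193 measured and 18 probe sets of 34945 with 1 gene symbol. Nr4a2 had 6 probe sets, Sox6 had 4, Lmx1b had 2, and each of the others had 1.

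Gene expression was measured on 18 Affymetrix arrays in 6 groups of 3. Laser capture was used to collect dopamine neurons of the substantia nigra (SN), the region whose dopamine neurons are lost in Parkinson's disease, and of the neighbouring ventral tegmental area (VTA). In each region the groups were saline, MPTP for 2 days and MPTP for 10 days, at 4 mg/kg. All mice, saline groups included, were adult C57Bl/6 animals that carried the hTH-GFP transgene, in which tyrosine hydroxylase regulatory sequence drives green fluorescent protein, lived singly for 9 weeks and died 7 days after their final injection. Saline was given for 10 days, per the series' design text, so that 2 day MPTP mice had fewer injections than both saline and 10 day MPTP mice. The effect of days of injection on the 2 day values cannot be told apart from that of MPTP. The control arrays are described as untreated in some labels and as saline injected in the treatment protocol, and are called saline here. Replicates are labelled biological, but it was not given how many mice an array holds or whether SN and VTA arrays share mice, so p-values measure the spread between these arrays.

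All 9 genes encode DNA-binding proteins. Foxa1 and Foxa2 are forkhead factors that open chromatin early in the floor plate of the midbrain, and Lmx1a and Lmx1b are LIM homeodomain factors that act with them to set up the dopamine progenitor. The engrailed homeodomain factors En1 and En2 pattern the midbrain and are needed for dopamine neurons to survive. Nr4a2, an orphan nuclear receptor also called Nurr1, and Pitx3, a paired-type homeodomain factor, switch on the genes of dopamine synthesis, storage and reuptake in the postmitotic neuron. Sox6, an HMG-box factor, marks many dopamine neurons of the SN and few of the VTA. Most of these factors stay on in the adult, where lowered dosage of several of them in mice weakens or kills dopamine neurons.

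Promoter windows of 3 members are shown because these genes carry the main values below: Foxa1 had the largest difference after MPTP in SN, Nr4a2 had probe sets that disagreed, and Sox6 was the member whose arrays did not overlap between regions in saline mice. Each is a RefSeq window of the GRCm38.p6 assembly, from 250 bases before to 50 bases after an annotated transcription start, written 5′ to 3′ along the gene's strand. The Foxa1 window is chr12:57546062-57546361, the Nr4a2 window chr2:57123954-57124253 and the Sox6 window, 1 of several for that gene, chr7:116030998-116031297, all on the minus strand. Capitals mark a match to a core motif of a member's family.
Foxa1 promoter: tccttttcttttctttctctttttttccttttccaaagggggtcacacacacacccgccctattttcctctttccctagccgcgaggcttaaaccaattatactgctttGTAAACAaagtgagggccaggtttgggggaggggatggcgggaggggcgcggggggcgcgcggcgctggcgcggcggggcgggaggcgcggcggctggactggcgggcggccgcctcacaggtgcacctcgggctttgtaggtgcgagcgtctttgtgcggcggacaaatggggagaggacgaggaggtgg
Nr4a2 promoter: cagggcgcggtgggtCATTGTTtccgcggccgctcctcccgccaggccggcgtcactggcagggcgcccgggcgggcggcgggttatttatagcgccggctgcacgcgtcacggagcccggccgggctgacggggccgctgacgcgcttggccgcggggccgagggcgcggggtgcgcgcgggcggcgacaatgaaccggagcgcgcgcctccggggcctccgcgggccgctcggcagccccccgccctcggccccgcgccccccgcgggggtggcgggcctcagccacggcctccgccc
Sox6 promoter: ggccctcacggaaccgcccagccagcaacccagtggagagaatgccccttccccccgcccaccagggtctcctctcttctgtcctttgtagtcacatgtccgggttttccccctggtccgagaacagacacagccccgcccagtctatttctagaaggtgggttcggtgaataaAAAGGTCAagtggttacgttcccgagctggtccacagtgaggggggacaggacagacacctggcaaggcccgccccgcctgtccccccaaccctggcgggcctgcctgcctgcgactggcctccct
The forkhead core TGTTTAC was found in the Foxa1 window on the opposite strand, read here as GTAAACA. The Sox core AACAATG was found in the Nr4a2 window, also on the opposite strand, as CATTGTT. The Sox6 window holds AAAGGTCA, the element bound by single NR4A receptors. On both strands these motifs occurred in 3.65%, 3.78% and 1.51% of 32851 RefSeq mouse windows of the same length, and in 1, 2 and 1 of the 15 windows of the members. The paired-type core TAATCC occurred in 1 member window and in 7.06% of all windows, and the homeodomain core TAATTA in 0 member windows and 5.29% of all. Each of the 3 printed windows holds 1 match, so that no motifs overlap there. The windows of En1, Foxa2, Lmx1a, Lmx1b and Pitx3 hold no match to these motifs, and no other Sox6 window holds AAAGGTCA. A match describes the letters of the window and is not a measured binding site. G and C made up 62.3% of the Foxa1 window, 81.7% of the Nr4a2 window and 63.3% of the Sox6 window, beside a median of 52.67% over all windows. The other 5 windows of Sox6 lay below that median, at 36.7% to 47%. Windows were found for 8 of the 9 members, and En2 had none.

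The deposited values are on the log2 scale after RMA normalisation, and each probe set had been shifted so that its median over the 18 arrays was 0. A difference of 1 is thus a 2-fold difference in signal, values cannot be compared as levels between genes, and whether a gene was detected at all, the dopamine markers included, could not be checked. Gene values are means over a gene's probe sets. Differences between groups were tested with limma in 1 model of all 18 arrays, with p-values adjusted by the Benjamini-Hochberg method over all 18193 genes and called under 0.05. Of the arrays, SN saline 1 and VTA 2 day MPTP 1 had the widest spread over genes, with median absolute deviations of 0.242 and 0.278, against 0.121 to 0.208 in the other arrays. VTA saline 1 stood apart from VTA saline 2 and 3 in several members, and the counts of members and the differences that turn on a single array are also given without it.

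In SN neurons after 2 days of MPTP, all 9 factors had a lower mean than in SN saline, with a median log2 difference of -0.44, and none passed the test after adjustment. The largest differences were those of Foxa1, En2, En1 and Foxa2, between -1.10 and -0.83. For 7 of the 9 genes, all but Nr4a2 and Lmx1a, every MPTP array was below every saline array. Over all genes, 55.3% had a lower mean, the median difference was -0.027, and 8.56% were lower without overlap. The adjusted test called 0% of genes in this comparison. At an unadjusted p under 0.05 limma listed 5 members, all lower, and 6.65% of all genes, or 3.8% counting the lower ones alone. In bulk RNA from captured cells, fewer dopamine neurons in a capture and less RNA per neuron cannot be told apart.

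**Figure D1:**
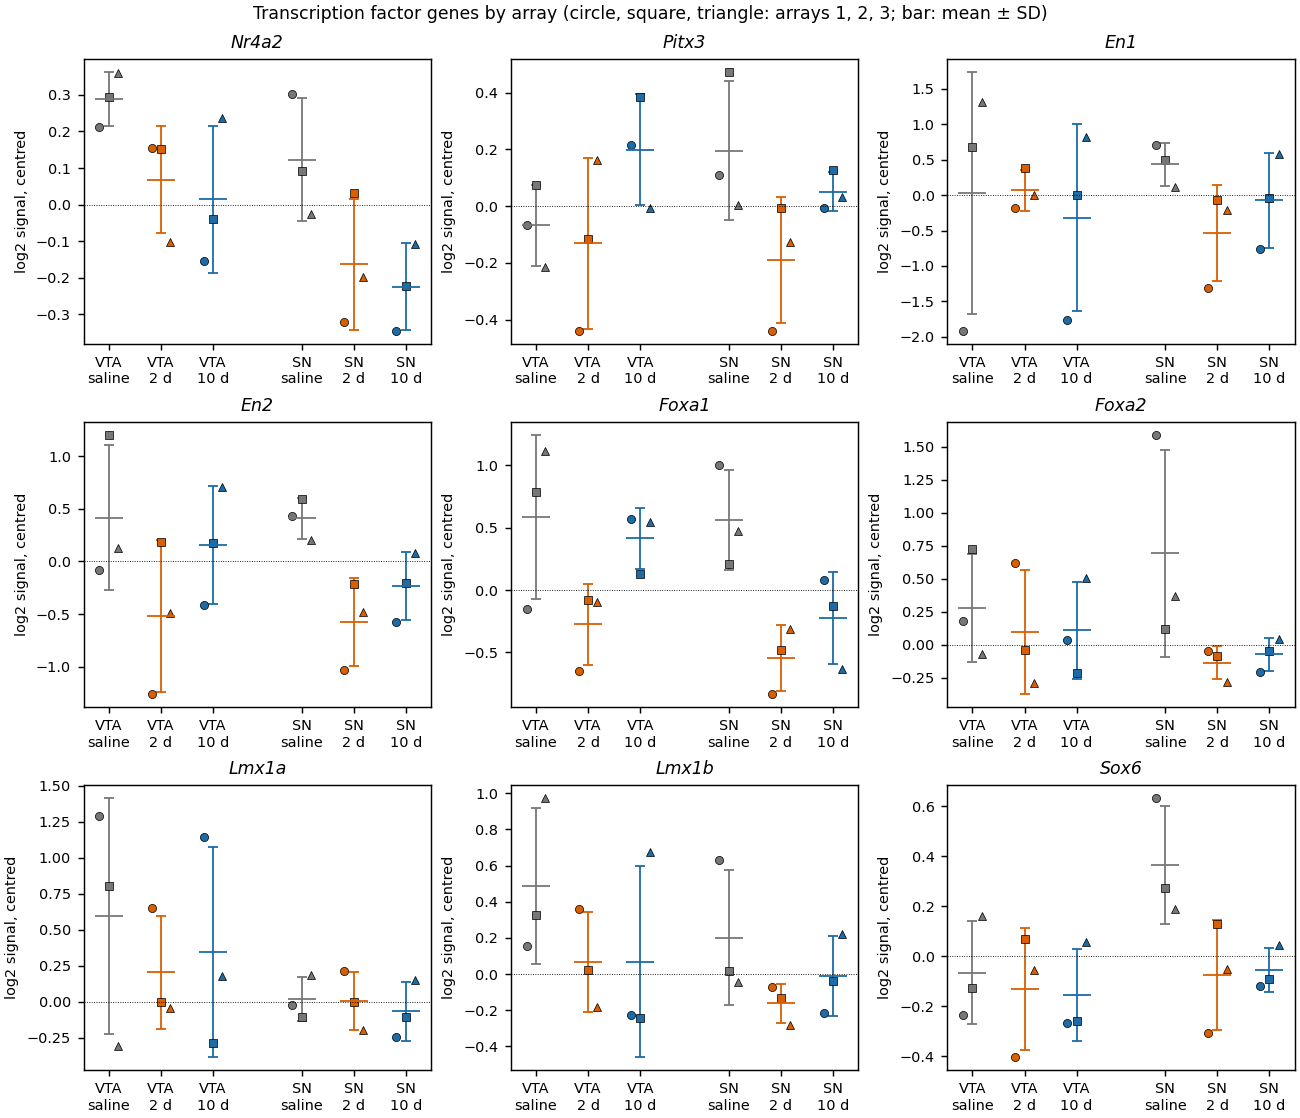
Centred log2 signal (vertical axes, 1 panel per gene) of the 9 factors on each of the 18 arrays, with VTA left of SN and saline, 2 day and 10 day MPTP in order within each region. Points are arrays and bars are group means ± SD. The 3 SN 2 day MPTP points of Foxa1 lie between -0.83 and -0.31, below the 3 SN saline points at 0.21 to 1.00.

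Foxa1 was at -0.83, -0.48 and -0.31 in SN 2 day MPTP arrays, against 1.00, 0.21 and 0.48 in SN saline arrays. The groups did not overlap. The difference was -1.10 ± 0.30 (SE, n = 3 arrays a group), or 2.15-fold lower, with a limma adjusted p of 0.564. After 10 days Foxa1 was at 0.081, -0.12 and -0.63 in SN, again below all 3 saline arrays, with a difference of -0.79 and an adjusted p of 0.879.

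In VTA neurons Foxa1 was at -0.65, -0.081 and -0.094 after 2 days of MPTP, against -0.15, 0.79 and 1.12 in saline. VTA saline 1 lies among the MPTP arrays, so the groups overlap. The difference was -0.86 ± 0.30 (SE, n = 3 a group; limma adjusted p = 0.471), and without VTA saline 1 it was -1.23. After 10 days the VTA arrays were at 0.57, 0.13 and 0.55, within the saline range, and the difference was -0.17, or -0.54 without VTA saline 1 and 0.093 without VTA saline 3. Foxa1 in VTA was thus higher after 10 days than after 2 days on every array, by 0.69 ± 0.30 (limma adjusted p = 0.762). Of all genes, 5.11% were higher without overlap in that comparison. In SN the same step gave 0.32, with overlapping arrays. Between these times limma called 0.033% of genes in VTA and 0.0165% in SN, and 0 members.

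Foxa2, the close relative of Foxa1 needed for the floor plate, was at -0.042, -0.086 and -0.28 in SN 2 day MPTP arrays, against 1.59, 0.12 and 0.37 in SN saline arrays. SN saline 1 was the highest of all 18 arrays. The difference was -0.83 ± 0.33 with it and -0.38 without it, and the groups did not overlap either way. The 10 day SN arrays, at -0.21, -0.048 and 0.043, were also all below saline, by 0.76 with SN saline 1 and by 0.32 without it. In VTA, Foxa2 differed from saline by -0.18 after 2 days and by -0.17 after 10 days, each within the spread of the arrays. Both changed sign without VTA saline 2, to 0.044 and 0.055.

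En2 was at -1.03, -0.21 and -0.48 in SN 2 day MPTP arrays, against 0.43, 0.59 and 0.20 in SN saline arrays. All 3 MPTP arrays were below saline, by 0.98 ± 0.38 on average (SE; limma adjusted p = 0.680). The SN 10 day arrays, at -0.57, -0.21 and 0.080, did not overlap saline either, with a difference of -0.64. In VTA, En2 was at -1.26, 0.19 and -0.49 after 2 days of MPTP, against -0.080, 1.20 and 0.12 in saline. The mean difference of -0.94 came with overlapping arrays and a limma adjusted p of 0.565. It was -0.57 without VTA 2 day MPTP 1 and -0.54 without VTA saline 2. The 10 day difference was -0.26, and 0.13 without VTA saline 2.

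En1 had the largest SD over the 18 arrays among the members, 0.880. In SN it was at -1.31, -0.076 and -0.21 in 2 day MPTP arrays, against 0.70, 0.50 and 0.11 in saline arrays, a difference of -0.97 ± 0.70 without overlap. Without SN 2 day MPTP 1 it was -0.58. In VTA saline the arrays were at -1.91, 0.67 and 1.32, so that the first alone set the sign: the VTA difference after 2 days was 0.044 with VTA saline 1 and -0.93 without it. After 10 days it was -0.34 with that array and -1.31 without it. A direction for En1 in VTA was not detectable at this spread.

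Nr4a2 was at -0.32, 0.031 and -0.20 in SN 2 day MPTP arrays, against 0.30, 0.091 and -0.027 in SN saline arrays. The groups overlap, and the difference was -0.29 ± 0.14 (SE; limma adjusted p = 0.757). After 10 days of MPTP the SN arrays, at -0.34, -0.22 and -0.11, were all below saline, by 0.35 on average (limma adjusted p = 0.887). In VTA, Nr4a2 was at 0.15, 0.15 and -0.10 after 2 days and at -0.15, -0.041 and 0.24 after 10 days, against 0.21, 0.29 and 0.36 in saline. It was the only member whose VTA 2 day arrays all lay below saline, with a difference of -0.22, or -0.14 without VTA 2 day MPTP 3. After 10 days the difference was -0.27 and 1 MPTP array lay within the saline range.

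The 6 probe sets of Nr4a2 did not give the same picture. Probe sets 1433422_at and 1433423_at stayed near 0, with SN 2 day differences of 0.032 and 0.14 and SN 10 day differences of -0.064 and 0.056. The other four, 1447863_s_at, 1450749_a_at, 1450750_a_at and 1455034_at, were lower in all 4 comparisons of MPTP with saline. Their SN 2 day differences were -0.34, -0.76, -0.41 and -0.38. Probe set 1455034_at was at -0.23, -0.30 and -0.43 in SN 10 day MPTP arrays, against 0.61, 0.13 and -0.037 in SN saline arrays. These groups did not overlap, and the difference was -0.55, with a limma adjusted p of 0.945 when every probe set was tested on its own. The gene mean of Nr4a2 averages both kinds of probe set, and which transcripts each kind reads was not tested.

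Pitx3, whose loss in mice removes most SN dopamine neurons and spares many of the VTA, was at -0.44, -0.0072 and -0.12 in SN 2 day MPTP arrays, against 0.11, 0.47 and 0.0055 in SN saline arrays. The lowest saline array and the highest MPTP array were nearly equal, so that the lack of overlap rests on a gap far smaller than the spread. The difference was -0.39 ± 0.17 (SE; limma adjusted p = 0.726), and -0.25 without SN saline 2. After 10 days it was -0.14 in SN, and -0.0060 without that array. In VTA it was -0.063 after 2 days and 0.27 after 10 days, the only positive mean difference of a member from saline in VTA at 10 days. The 2 day value was 0.0088 without VTA saline 2, and the 10 day value 0.17 without VTA 10 day MPTP 2.

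Lmx1b was at -0.072, -0.13 and -0.28 in SN 2 day MPTP arrays, against 0.63, 0.014 and -0.044 in SN saline arrays. The difference of -0.36 ± 0.26 rests largely on SN saline 1 and was -0.15 without it. After 10 days the SN difference was -0.21, and 0.0043 without that array. In VTA, Lmx1b differed by -0.42 at both times, or by -0.17 without VTA saline 3, and its arrays overlapped, although its probe set 1421769_at was lower on every MPTP array at both times, by 0.27 and 0.46. Lmx1a, its partner in the floor plate, was the member nearest to 0 in SN, with 2 day and 10 day differences of -0.013 and -0.087 and a 95% interval of -0.776 to 0.750 for the first. Its VTA differences were -0.39 and -0.25, and they were -0.045 and 0.098 without VTA saline 1.

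Sox6 was at -0.31, 0.13 and -0.049 in SN 2 day MPTP arrays, against 0.63, 0.27 and 0.19 in SN saline arrays. No arrays overlapped, and the difference was -0.44 ± 0.17 (SE; limma adjusted p = 0.680), or -0.31 without SN saline 1. The SN 10 day arrays, at -0.12, -0.091 and 0.044, were also all below saline, by 0.42 with SN saline 1 and by 0.29 without it. All 4 Sox6 probe sets were lower in both SN comparisons, by 0.35 to 0.63 at 2 days and by 0.26 to 0.57 at 10 days. In VTA the differences were -0.065 and -0.090, or 0.049 and 0.024 without VTA saline 3, and the probe sets differed in sign.

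**Figure D2:**
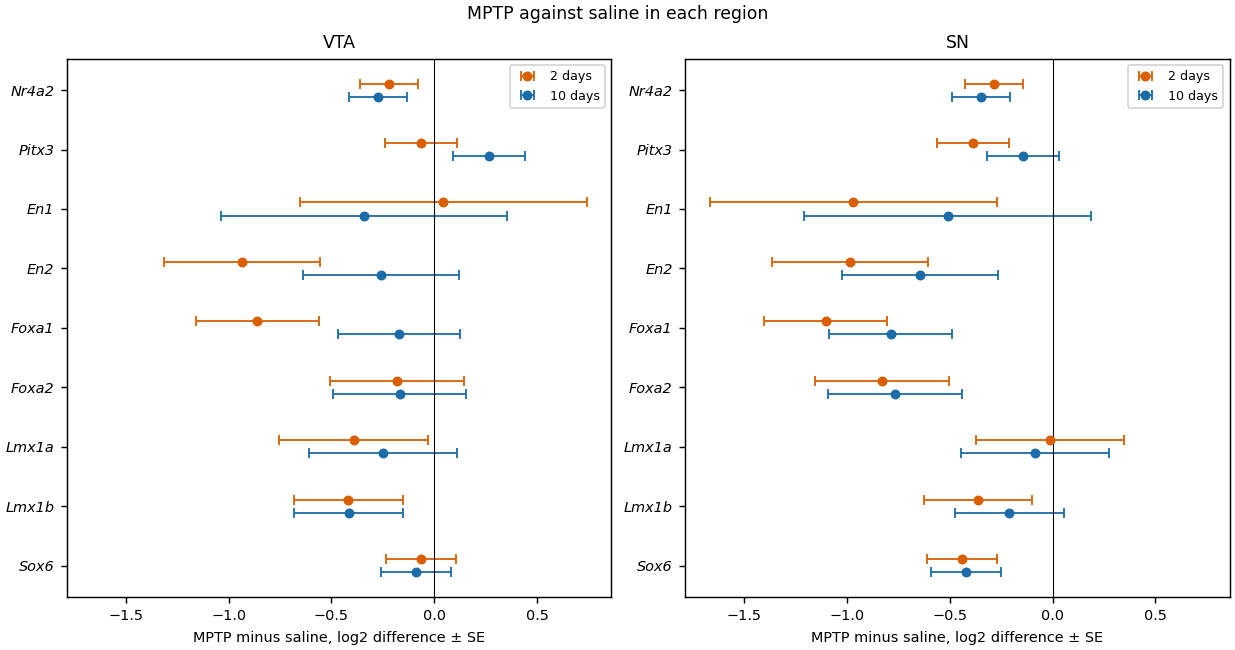
Difference from saline of the same region in centred log2 signal (horizontal axis) for each of the 9 factors, in VTA and SN after 2 and 10 days of MPTP. Points are limma estimates and lines span the estimate ± SE, which is narrower than a 95% interval. All 9 estimates lie below 0 in SN at both times, between -1.10 and -0.013 at 2 days.

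In SN after 10 days of MPTP all 9 members again had a lower mean, by a median of 0.42, and 5 of them, Nr4a2, En2, Foxa1, Foxa2 and Sox6, were lower without overlap. Over all genes 53.4% were lower, 6.27% without overlap, and limma called 0.0055% of genes, which was 1 gene and no member. In VTA after 2 days 8 of 9 members were lower, by a median of 0.22, and 1 without overlap, where 51.6% of all genes were lower and 4.92% without overlap. After 10 days 8 of 9 were lower, by a median of 0.25, and 0 without overlap, where the shares over all genes were 50.9% and 4.53%. The adjusted test called 0.011% of genes in each VTA comparison, and 0 members. At an unadjusted p under 0.05 limma listed 4 members at 10 days in SN, 2 at 2 days in VTA and 0 at 10 days in VTA, where 5.57%, 8.06% and 5.41% of all genes were listed. The 2 day and 10 day comparisons of a region share their saline arrays and are not independent of each other.

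With each array of a comparison left out in turn, 8 of 9 members, all but Lmx1a, kept their sign every time in SN at 2 days, and 7, all but Lmx1a and Lmx1b, in SN at 10 days. In VTA 5 did so at 2 days and 3 at 10 days. A member whose arrays do not overlap cannot change sign when 1 array is left out. This held in SN for 7 of these members at 2 days and 5 at 10 days, and in VTA for 1 at 2 days. The same counts of kept signs over all genes are not given here. Leaving out the arrays that stood apart moved the counts without overlap in different ways. Without SN saline 1, 7 members were lower without overlap in SN at 2 days, beside 15.5% of all genes, and 5 at 10 days, beside 12.8%. In VTA at 2 days the count of lower members without overlap was 3 without VTA saline 1, beside 10.4% of genes, and 2 without VTA 2 day MPTP 1, beside 12.2%. In VTA at 10 days it was 2 without VTA saline 1, beside 9.47%.

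Averaged over both regions, the 2 day MPTP arrays were lower than saline for all 9 members and for 54.7% of all genes. Foxa1 had the smallest adjusted p of any member in any comparison, at -0.98 ± 0.21 (SE, 6 arrays a group) with a limma adjusted p of 0.0931. This value depends on 1 array: without VTA saline 1 the difference was -1.17 with an adjusted p of 0.0174. En2 followed at -0.96 ± 0.27 with a limma adjusted p of 0.181. In this comparison the test called 0.0879% of genes, or 16, and at an unadjusted p under 0.05 it listed 4 members and 11.1% of all genes. Averaged over both regions after 10 days, Nr4a2 led at -0.31 ± 0.10 with a limma adjusted p of 0.409, ahead of Foxa1 at -0.48. There the test called 0.0385% of genes, none of them members, and an unadjusted p under 0.05 listed 3 members and 7.74% of genes. Pitx3 alone among the members had a positive value, 0.061, where 53.4% of all genes were below 0.

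The design also asks whether VTA and SN responded differently to MPTP. The response of Foxa1 at 2 days was 0.24 ± 0.42 (SE) less negative in VTA than in SN, with a 95% interval of -0.649 to 1.14. At 10 days this value was 0.61 ± 0.42, with an interval of -0.278 to 1.51. For En1 at 2 days it was 1.01 ± 0.98, with an interval of -1.08 to 3.10. Both 2 day values turn on VTA saline 1. Without it the VTA difference of En1 was -0.93, beside -0.97 in SN, and that of Foxa1 was more negative than in SN. For 7 of 9 members at each time the VTA response was the higher, with medians of 0.24 and 0.33, where 47.4% and 48.2% of all genes had a negative value. With each array left out in turn, only 5 of 9 members kept the sign of this value every time, at 2 days and at 10 days. Limma called 0% of genes in both tests. At an unadjusted p under 0.05 it listed 3.3% and 3.17% of genes, none of them a member. A difference between the regions in how any factor responded was therefore not detectable with 3 arrays a group, and intervals this wide do not show that the responses were alike.

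In saline mice, Sox6 was the 1 member whose arrays did not overlap between regions, at -0.23, -0.13 and 0.16 in VTA and 0.63, 0.27 and 0.19 in SN. It was lower in VTA by 0.43 ± 0.17 (SE; limma adjusted p = 0.9998), by 0.30 without SN saline 1 and by 0.35 without VTA saline 1, and lower in VTA in each of its 4 probe sets, by 0.22 to 0.60, although the arrays of each single probe set overlapped. Of all genes, 3.84% were lower in VTA without overlap, and 0% were called. At an unadjusted p under 0.05 limma listed 4.36% of genes, and Sox6 alone of the members. Lmx1a, at 1.29, 0.80 and -0.31 in VTA saline and -0.024, -0.11 and 0.19 in SN saline, had the largest positive mean difference, 0.58 ± 0.36, with arrays that overlap, and 0.23 without VTA saline 1. En1 differed by -0.41 with VTA saline 1 and by 0.56 without it, and Foxa2 by -0.41 with SN saline 1 and by 0.033 without it. The other members overlapped too, and 5 were higher and 4 lower in VTA, where 50% of all genes were lower.

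Between regions after MPTP, no member was called either. Sox6 differed between VTA and SN by -0.054 after 2 days and by -0.10 after 10 days, beside -0.43 in saline. Foxa1 after 10 days was at 0.57, 0.13 and 0.55 in VTA and 0.081, -0.12 and -0.63 in SN. It was higher in VTA on every array, by 0.64 ± 0.30 (SE; limma adjusted p = 0.9999), where 4.88% of all genes were higher without overlap. Averaged over the 3 treatments, Nr4a2 was higher in VTA by 0.21 ± 0.082 with a limma adjusted p of 0.972, where 0% of genes were called and 4.2% had an unadjusted p under 0.05. Its value was positive under each treatment, at 0.17 in saline, 0.23 after 2 days and 0.24 after 10 days of MPTP.

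**Figure D3:**
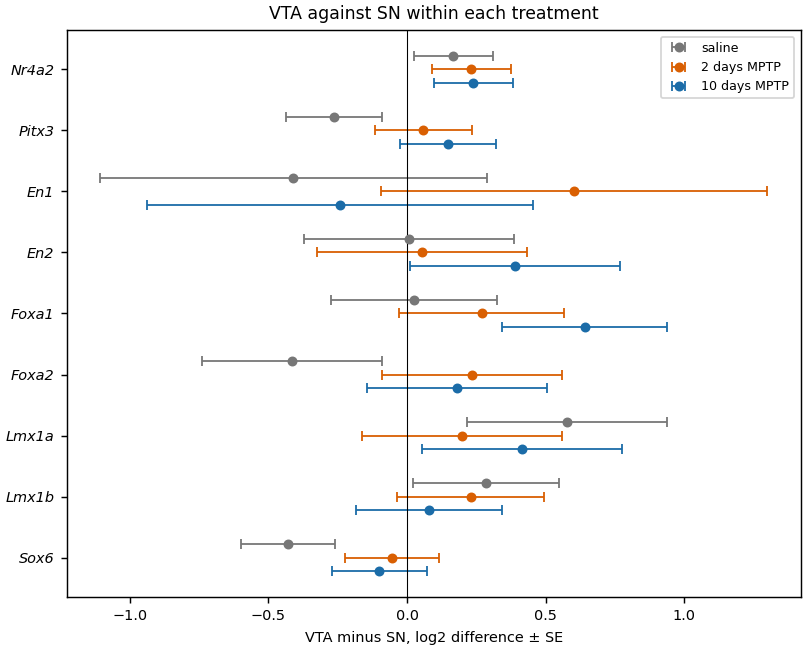
Difference between VTA and SN in centred log2 signal (horizontal axis, VTA minus SN) of the 9 factors under saline, 2 day MPTP and 10 day MPTP. Points are limma estimates and lines span the estimate ± SE, which is narrower than a 95% interval. Sox6 lies at -0.43 under saline and at -0.054 and -0.10 after MPTP, while Nr4a2 lies between 0.17 and 0.24 throughout.

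**Figure D4:**
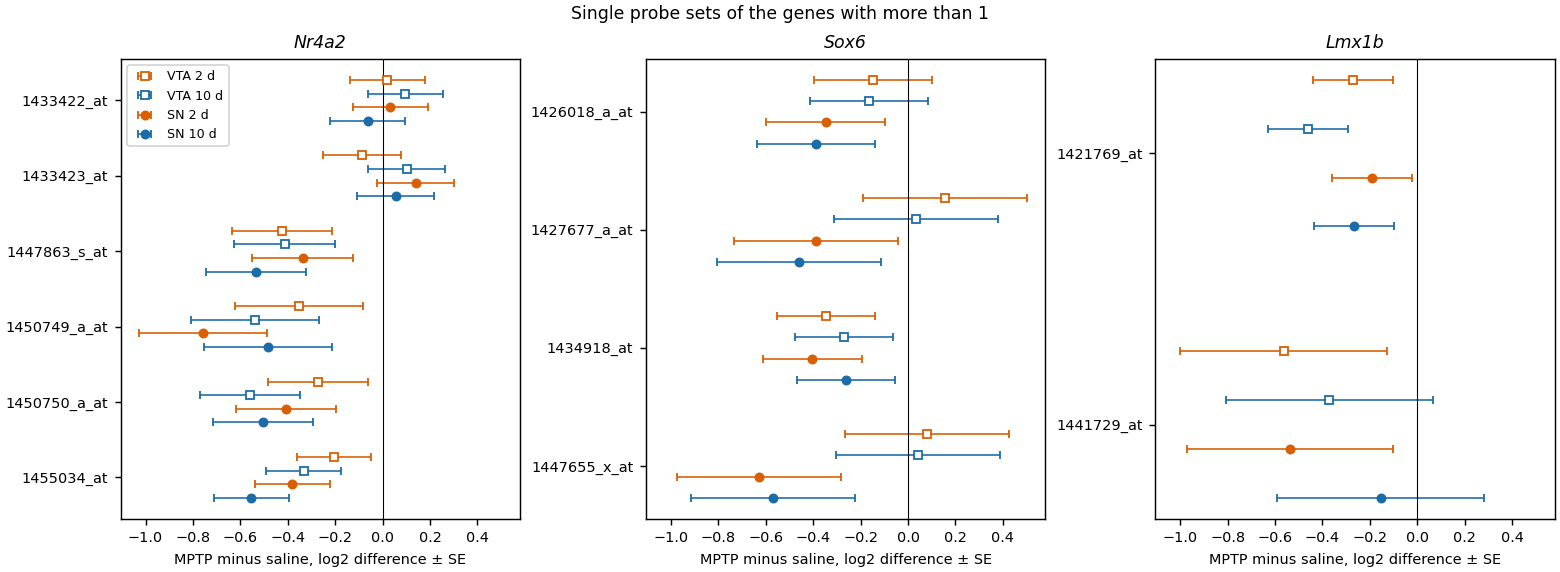
Difference from saline in centred log2 signal for each probe set of Nr4a2, Sox6 and Lmx1b, in VTA and SN after 2 and 10 days of MPTP. These are the factors with more than 1 probe set. Nr4a2 probe sets 1433422_at and 1433423_at lie near 0 while its other four lie lower, and the 4 Sox6 probe sets lie between -0.63 and -0.35 in SN at 2 days.

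Genes that these factors are known to switch on, or that mark the finished neuron, were mostly lower too. Of 12 direct target and terminal genes, 11 had a lower mean in SN 2 day MPTP arrays than in SN saline arrays, with a median difference of -1.01. Of these, 10 were lower without overlap, beside 8.56% of all genes, and 0 were called in limma, the smallest adjusted p being 0.522. Th, which encodes the rate-limiting enzyme of dopamine synthesis, was at -0.27, -0.12 and -0.87 in SN 2 day MPTP arrays, against 1.45, 0.59 and 0.57 in SN saline arrays. The groups did not overlap, and the difference was -1.29 ± 0.52. Gch1, whose enzyme makes the cofactor of tyrosine hydroxylase, differed by -1.64, the dopamine autoreceptor gene Drd2 by -1.40 and Ret, the receptor subunit for the survival factor GDNF, by -1.27. Slc6a3, the dopamine transporter, differed by -0.96, Slc18a2, the vesicular transporter, by -0.99, and Ddc, which completes dopamine synthesis, by -0.90. After 10 days in SN 11 of the 12 were lower with a median of -0.44, and in VTA 12 of 12 were lower at both times, with medians of -0.63 and -0.24. The VTA medians turn on VTA saline 1, where the mean of the list was -0.58, against 0.63 and 0.77 on the other VTA saline arrays: without it they were -1.04 and -0.77. None of these genes was called.

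Genes for proteins that bind or repress these factors had differences in both directions. Of 15 measured partners and co-regulators, 6 were lower and 9 higher in SN at 2 days, with a median of 0.084 and 0 called. Pbx3, a homeodomain cofactor of engrailed proteins, differed by -0.91 ± 0.35. Nr4a1, a close relative of Nr4a2, differed by 0.74 ± 0.26, and the retinoid receptor gene Rxrg, whose product can pair with Nr4a2, by 0.58 ± 0.23. Sfpq, an RNA-binding protein that joins Nr4a2 in a complex, differed by 0.43 ± 0.17. These 4 genes are named because their arrays did not overlap, as was the case for 8.56% of all genes in the lower and 5.96% in the higher direction.

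Of 25 measured other midbrain neuron transcription factors, 13 were lower and 12 higher in SN at 2 days, with a median of -0.053 and 0 called. Ebf3, a helix-loop-helix factor, differed by -0.75, and Nr2f1, an orphan nuclear receptor, by 0.70 ± 0.21. Its relative Nr2f2 differed by 0.58 and the chromatin organiser Satb1 by -0.38. The median differences of the 9 members, of the partners and of the other midbrain factors were thus -0.44, 0.084 and -0.053, beside -0.027 over all genes, and these medians were not tested against each other.

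The 5 dopamine neuron markers, which overlap the target list, were all lower in SN at 2 days with a median of -0.99. Their mean per array ran from -0.65 to -0.11 in SN 2 day MPTP, against 0.45 to 1.17 in SN saline, and the mean of the 9 members ran from -0.46 to -0.094, against 0.16 to 0.60. Neither overlapped. Of 10 astrocyte markers, 8 were higher in SN at 2 days with a median of 0.22, and their mean per array ran from 0.0027 to 0.23 in SN 2 day MPTP, against -0.13 to -0.055 in SN saline. Of 9 oligodendrocyte markers 7 were lower, with a median of -0.21, and array means ran from -0.080 to 0.097, against -0.12 to 0.50. Of 12 transcription factors of neighbouring neurons 8 were lower, with a median of -0.28. In VTA at 2 days 9 of 10 astrocyte markers were instead lower, with a median of -0.14, as were 9 of 9 oligodendrocyte markers, with a median of -0.39. Of 6 oligodendrocyte precursor markers 5 were lower there, with a median of -0.44, and their mean per array ran from -0.29 to 0.0045 in VTA 2 day MPTP, against 0.19 to 0.33 in VTA saline. In SN at 2 days their median was 0.020. Microglia markers had a median of -0.054 in SN at 2 days, with 6 of 10 lower, and endothelium markers a median of -0.058, with 5 of 8 lower. No marker of these cell types was called in SN at 2 days.

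Of the marker genes, Capsl alone passed the test in the comparisons with saline, and it is named after its values were seen. It belongs to the ependyma and choroid plexus list, cells that line the ventricles. Capsl rose in VTA at 2 days by 2.48 ± 0.37 (SE; limma adjusted p = 0.0414) and, averaged over both regions, by 1.72 ± 0.26 (limma adjusted p = 0.0159), the comparison in which Foxa1 had its smallest adjusted p. With 1 array left out the first adjusted p in limma ran from 0.0148 to 0.181 and the second from 0.00404 to 0.0673, so that each call is lost without some single arrays. The first was kept without VTA saline 3 alone. Over the 6 measured genes of the list, the median difference was 0.0076 in SN at 2 days, 0.34 in SN at 10 days, 0.22 in VTA at 2 days and 0.10 in VTA at 10 days. The mean of the list per array ran from -0.40 to 0.59 in SN 2 day MPTP and from -0.12 to 1.79 in SN 10 day MPTP, against -0.86 to 0.12 in SN saline. In VTA 2 day MPTP it ran from -0.28 to 1.26, against -0.83 to 0.60 in VTA saline. The part of cell type makeup in the members' values was not tested.

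**Figure D5:**
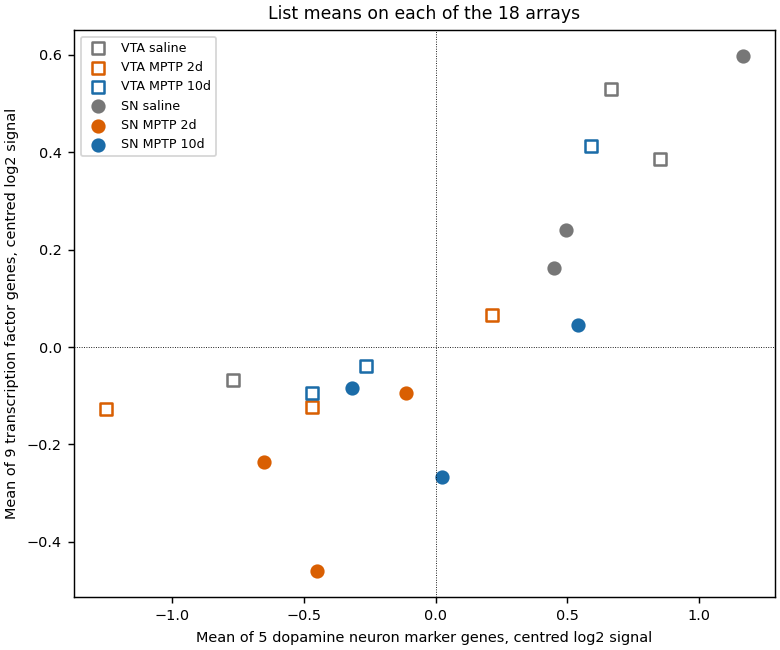
Mean centred log2 signal per array of the 9 factors (vertical axis) against that of the dopamine neuron markers (horizontal axis). Each point is 1 array. The mean of the factors lies between -0.46 and -0.094 on the SN 2 day MPTP arrays, below the SN saline arrays at 0.16 to 0.60.

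The mean of the 9 factors was set against other genes over the 18 arrays, as a description. Symbols of clones, predicted genes and RIKEN transcripts were skipped, here and for the single members below. Pearson's r was highest for Ret at 0.937, followed by the axon guidance receptor gene Robo1 at 0.906, the cation channel gene Trpc6 at 0.897, Pigb at 0.876 and Ankrd34b at 0.874. Fbxl7 at 0.871, Chrna5 at 0.870, Fam167a at 0.860, Gch1 at 0.853 and Chrna4 at 0.851 completed the first 10. Chrna4 and Chrna5 encode nicotinic acetylcholine receptor subunits. The 18 arrays share groups and amplification, so these values carry no p. For single members the highest r was that of En2 with Il13ra1, 0.914, Foxa2 with Mmp8, 0.909, Lmx1b with Tulp1, 0.888, and En1 with Arhgap6, 0.886. It was 0.881 for Lmx1a with Knl1, 0.871 for Sox6 with Tyrp1, 0.866 for Nr4a2 with Prkar1a, 0.860 for Pitx3 with Cog3 and 0.854 for Foxa1 with Lhfpl5.

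Among the members themselves, 28 of 36 pairs had r above 0 over the 18 arrays, a count that was not made over all pairs of genes. The median r was 0.403 and the range was -0.576 to 0.786. The pair of Nr4a2 and Lmx1b had the highest, with Pearson's r 0.786 (permutation test, adjusted p = 0.00252 over 36 pairs) and Spearman's rho 0.785 (permutation adjusted p = 0.00612). It was the only pair whose r passed adjustment, while by rho 12 of the 36 pairs did, in permutation tests. Among these were En1 with En2 (rho 0.746, permutation adjusted p = 0.0121), Foxa2 with Lmx1b (rho 0.707, permutation adjusted p = 0.0188) and En1 with Sox6 (rho 0.668, permutation adjusted p = 0.0217). The r of Nr4a2 and Lmx1b was 0.737 without the 2 arrays farthest from the median of Nr4a2, and 0.761 after the 6 group means were removed. The pair of En2 and Foxa1 had r 0.662 (permutation adjusted p = 0.0521) and rho 0.674 (permutation adjusted p = 0.0217), and r fell to 0.270 once group means were removed. En1 and Lmx1a had the lowest r, -0.576. It was 0.0076 without the 2 arrays farthest from the median of En1, and -0.712 after group means were removed. After group means were removed, r was 0.657 for En1 with En2, 0.573 for Foxa2 with Lmx1b and 0.667 for En1 with Sox6. The permutation tests shuffled the 18 arrays across all 6 groups, so group means shared by 2 genes enter these p-values. They do not test a relation within groups. Shares over all pairs of genes were not computed, so the counts of 28 and 12 pairs are not read as particular to the members. The tests also take the 18 arrays as independent, which the labels do not settle for SN and VTA arrays of the same treatment.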

How the data were processed

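Centred log2 signals of dopamine neurons captured from SN and VTA were measured on 18 arrays. RNA from an RNeasy Micro kit was amplified with WT-Ovation Pico and biotin labelled, per the labels' protocols. The deposited log2 values were RMA normalised in GeneSpring GX 10.0 by the authors, per the series' design text, and cover 45101 probe sets. No source states the centring, which was found from the values: every probe set's median is 0 to within 5e-07. How background was corrected is not given in the sources used here. In the platform annotation 34945 probe sets had 1 symbol, and only these were used: 932 listed several symbols, 9211 had no symbol, and 64 were controls. A gene's value was the mean of its probe sets.

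Groups came from sample titles. Limma 3.58.1 in R 4.3.3 fitted 6 group means, with 12 residual degrees of freedom, and 14 comparisons were tested two-sided, with Benjamini-Hochberg adjustment over 18193 genes within each. The script was tested on simulated data. Permutation tests used 100000 resamples, and Python 3.11.15 made the figures. Named genes were all members, Th, Slc6a3, Slc18a2 and Ddc, and up to 4 non-overlapping genes of each related list by size. Also named were the 10 genes most like the members' mean and 1 gene most like each member. Symbols of clones, predicted genes and RIKEN transcripts were skipped in that search for like genes. Capsl, Gata3 and Otx2 were named after their values were seen. The members and lists were chosen with earlier results of these data known. Alternatives were quantile normalisation, array weights, other rules for probe sets, each array left out, and replicate blocks.

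SN and VTA arrays carry the same replicate numbers. After group means were removed, same-numbered arrays of a treatment correlated over all genes at 0.0643 to 0.225 in saline, 0.0504 to 0.231 after 2 days and 0.281 to 0.399 after 10 days of MPTP, so 7 of 9 pairs were over 0.1, and all 3 pairs after 10 days. The pairing comes from the number in the titles alone. The number of arrays limits the precision.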

Additional observations from a re-analysis of the deposited data

How the results depend on the processing

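Each value was recomputed with other probe set rules, normalisations, array weights, sets of arrays and replicate blocks. Of 2214 gene values under these settings, 132 changed sign, all among values that neither passed an unadjusted p under 0.05 nor separated the arrays of the groups. Where the arrays were separated, leaving out 1 array cannot change the sign. The median difference of the members in SN at 2 days ran from -0.54 to -0.38 with 1 array left out at a time and was -0.76 with the probe set of largest SD per gene. In VTA against SN in saline the median was 0.0066 and ran from -0.34 to 0.23 with 1 array left out, so its sign is not settled. The count of members called at 2 days over both regions was 0, beside 0.0879% of all genes, and 1 with array weights (Foxa1, adjusted p = 0.0488 in limma). With 1 array left out the count ran from 0 to 1, the 1 being Foxa1 without VTA saline replicate 1. The shares of all genes called under these other settings are not given here, so neither call is read as particular to Foxa1. Members lower without overlap in VTA at 2 days numbered 3 without VTA saline 1 and 2 without VTA 2 day MPTP 1, beside 10.4% and 12.2% of all genes. At 10 days they numbered 2 without VTA saline 1, beside 9.47%. With all arrays these shares of all genes were 4.92% at 2 days and 4.53% at 10 days. These counts were an alternative added after seeing the data, as were those for the target genes and Capsl. With the replicate block, fixed or random, the SN 2 day median stayed at -0.44 and no member was called. The smallest adjusted p over members was 0.0684 (En2, 2 days, both regions) in limma with the fixed block and 0.227 (Foxa1, same comparison) with the random one. Because the values carry no level, leaving out dim genes was not run. Signal over background is unknown.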

Other observations

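Otx2, a homeodomain factor that marks many VTA dopamine neurons, was not a member and is given because of its values. It was 1.01 ± 0.32 lower on the log2 scale in VTA after 2 days of MPTP than in VTA saline (difference -1.01, SE, n = 3 arrays a group, limma adjusted p = 0.406). For Otx2 every MPTP array lay below every saline array, as for 4.92% of all genes. Between regions in saline mice it was higher in VTA by 0.80 ± 0.32, with overlapping arrays and an adjusted p of 0.9998 in limma. Both values use the VTA saline arrays. In SN after 2 days Otx2 differed by -0.089.

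Gata3, a zinc finger factor of neighbouring GABA neurons, was lower without overlap in SN at both times, as for 8.56% and 6.27% of all genes. Its differences were -0.90 ± 0.31 at 2 days and -1.06 ± 0.31 at 10 days (limma adjusted p = 0.646 and 0.800). In VTA it differed by -0.56 and -0.59, and the arrays overlapped. It is 1 of 12 measured factors of neighbouring neurons, of which 8 were lower and 4 higher in SN at each time. Their differences ran from -0.94 to 1.05 at 2 days and from -1.06 to 0.53 at 10 days. The 4 GABA neuron markers had a median difference of -0.029 in SN at 2 days, with 3 of 4 lower. The 4 erythrocyte markers were all lower in SN at 2 days, with a median of -0.52. None of these passed the adjusted test.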
